A study of Mus musculus with 10 samples.

Results

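The set examined here holds 9 genes of glutamine uptake and glutamate metabolism, chosen by name: Slc1a5, Slc38a1, Glud1, Glul, Got1, Got2, Gpt, Gpt2 and Asns. Each matched 1 row of the deposited count table, 9 of its 39017 genes, and all 9 passed the filter on low counts, as did 15922 genes of the whole table. The rule that selects them uses no measured value, although the genes were listed with earlier results of these data known. The 10 libraries came from mouse lung tumours of KP and KPG1 mice on a C57BL6/J background (strain label C57BL/6), 5 labelled Control and 5 labelled Glut1-KO. Both kinds of mice carry the alleles K-ras LSL-G12D/WT and p53 Fl/Fl, and KPG1 mice are in addition homozygous for floxed Glut1 (Slc2a1, the glucose transporter). In all 10, tumours were started with Ad5CC10-Cre, an adenovirus given into the airways whose promoter limits the recombinase to CC10-positive secretory cells, and were collected 20 weeks and 1 day later. RNA came from the dissociated tumour cells left after removal of CD45-positive immune cells with magnetic beads, a fraction that still holds other CD45-negative cells. Controls are labelled heterozygous fl/wt, although the design text calls them Glut1-WT, and the group labelled Glut1-KO is homozygous fl/fl. The study's methods state that its controls are either wild-type or heterozygous for floxed Slc2a1.

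Glutamine is the most abundant free amino acid in blood and is the nitrogen donor for nucleotides, hexosamines and asparagine. Inside the cell it is turned into glutamate, which glutamate dehydrogenase or the transaminases convert to α-ketoglutarate, an intermediate of the tricarboxylic acid cycle, while glutamine synthetase runs the reaction back from glutamate to glutamine. Because this route can feed the cycle with carbon that does not come from glucose, the comparison addressed whether tumours labelled Glut1-KO carried other levels of these transcripts.

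Across the set, no gene passed the test for a difference between the groups. Of the 9 genes, 0 passed an adjusted p of 0.05 with limma and 0 had an unadjusted limma p under 0.05, beside 0 of 15922 genes (0.0%) and 1223 genes (7.68%) in the whole table. With edgeR the counts were 0 adjusted and 0 unadjusted, beside 0 (0.0%) and 1409 genes (8.85%) of the table. DESeq2 gave 0 adjusted and 1 unadjusted (Slc1a5), beside 215 (1.35%) and 1715 genes (10.8%) of the table. In 0 of the 9 were all libraries of one group above all of the other, against 295 genes (1.85%) of the table. The fitted difference was positive for 6 genes (Slc1a5, Slc38a1, Glul, Got1, Got2 and Gpt) and negative for 3 (Glud1, Gpt2 and Asns). The median of the 9 log2 fold changes was 0.15, and that of all genes tested was -0.005. Libraries also differed within the groups. Slc38a1 spanned a 7.43-fold range among the controls and a 2.93-fold range among the Glut1-KO-labelled libraries. For Slc38a1, Got1 and Asns every female Glut1-KO-labelled library lay below both male ones. The share of all genes split in this way was not computed. With 3 female and 2 male libraries such a split can easily arise by chance, so it is only a description.

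Libraries held between 35.3 and 49.8 M counts (M, mega), which gave every gene of the set between 450 and 18191 counts in each library. The epithelial genes Epcam, Krt8, Krt18, Nkx2-1 and Cdh1, which define the labelled lung tumour cells, were present in all libraries, with a summed level of 3327 to 4343 CPM (counts per M of the library, after TMM scaling) in controls and 2809 to 6251 CPM in the Glut1-KO-labelled libraries. Slc2a1, the targeted gene, had 118.0, 86.7, 92.6, 103.5 and 73.2 CPM in Control 1 to 5 and 60.3, 42.5, 34.6, 92.4 and 102.9 CPM in Glut1-KO 1 to 5. The first 3 of these lay below every control, whereas Glut1-KO 4 and 5 lay inside the control range, so the group is called by its label throughout. Glut1-KO 1 to 3 are labelled female and all other libraries male. For the female libraries, group and sex therefore cannot be told apart. No label says which libraries came from separate mice. The deposited names carry a number shared by Control 1, 2 and 5, by Control 3 and 4, and by Glut1-KO 4 and 5, so that p-values may measure only the spread between these samples.

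Per length of transcript, in TPM (transcripts per M, from the summed exon lengths of each gene), the 9 genes kept a broad order. Glul was at 235.4 ± 80.3 TPM and Glud1 at 193.6 ± 47.5 TPM (SD, n = 10), followed by Slc1a5 at 140.0 ± 27.2 TPM and Got2 at 114.5 ± 33.7 TPM. Asns had 74.8 ± 25.7 TPM, Got1 63.5 ± 23.3 TPM and Gpt 43.5 ± 12.4 TPM (SD, n = 10). Gpt2 at 24.5 ± 8.16 TPM and Slc38a1 at 10.1 ± 6.37 TPM were the lowest (SD, n = 10). Within single libraries, Got2 stood above Asns and Gpt2 above Slc38a1 in 10 of 10. Gpt stood above Gpt2 in 9 of 10. The other neighbours in the order changed places in 2 of the 10 libraries each, and their ranges overlapped. The summed exon length of Slc38a1, 17236 bases, counts every annotated exon, which lowers its TPM relative to one based on shorter transcripts.

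Promoter sequences of the set are shown for Asns and Got1, since these are the only windows of the set that hold the letters of the C/EBP-ATF response element through which ATF4, the transcription factor of the amino acid response, is known to act on Asns. Windows of 250 bases before to 50 bases after the start, from RefSeq on GRCm38.p6, were matched for 6 of the 9 genes (Glud1, Glul, Got1, Got2, Gpt2 and Asns), and not for Slc1a5, Slc38a1 and Gpt. The letters searched were TGATGNAA on both strands (TTNCATCA on the other). They occurred in 2 of the 6 windows and in 1303 of 32841 windows of the same length (3.97%). Asns lies on the minus strand and its window is chr6:7693160-7693459. The match, in capitals, begins 23 bases before the RefSeq start and reads along the gene. The 5′ end of Asns in GENCODE lies 45 bases upstream of the RefSeq start, so that the match falls inside the gene as annotated there, and for Got1 both starts are the same base.
Asns: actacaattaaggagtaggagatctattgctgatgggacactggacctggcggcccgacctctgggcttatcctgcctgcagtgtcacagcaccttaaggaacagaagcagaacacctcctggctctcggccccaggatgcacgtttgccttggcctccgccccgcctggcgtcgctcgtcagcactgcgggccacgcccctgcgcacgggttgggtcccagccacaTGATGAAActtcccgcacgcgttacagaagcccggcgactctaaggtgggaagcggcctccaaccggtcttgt
Got1 also lies on the minus strand, with the window chr19:43524556-43524855. Its match, in capitals, begins 102 bases before that start and is that of the reverse complement.
Got1: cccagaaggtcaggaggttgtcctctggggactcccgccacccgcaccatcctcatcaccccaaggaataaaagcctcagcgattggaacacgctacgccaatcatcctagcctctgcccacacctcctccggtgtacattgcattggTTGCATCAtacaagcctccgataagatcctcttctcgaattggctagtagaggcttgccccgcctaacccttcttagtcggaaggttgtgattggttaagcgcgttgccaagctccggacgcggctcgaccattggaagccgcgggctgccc
A match of letters is a description of the sequence and does not show binding.

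Uptake was represented by Slc1a5 and Slc38a1. Slc1a5 (ENSMUSG00000001918, chr7:16781340-16798274, plus strand, all positions on GRCm38) codes for ASCT2, a sodium-dependent exchanger that brings in glutamine. Its level was 146.6, 142.0, 153.0, 195.0 and 181.2 CPM in Control 1 to 5, and 233.0, 182.9, 242.8, 184.2 and 165.4 CPM in Glut1-KO 1 to 5. Glut1-KO 1 and 3 lay above every control, while the other 3 fell within the control range. Means were 163.6 ± 23.3 and 201.7 ± 34.1 CPM (SD, n = 5 per group), a log2 fold change of 0.30 (SE 0.14, 95% interval -0.02 to 0.61). This had the smallest adjusted p of the set with limma, 0.669, and an exact permutation p of 0.0635 (2-sided, 252 assignments of libraries to the groups, smallest possible 0.00794). Relative to the controls, the difference in log2 CPM was 0.43 for the 3 female and 0.11 for the 2 male Glut1-KO-labelled libraries.

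Slc38a1 (ENSMUSG00000023169, chr15:96571418-96642913, minus strand) codes for SNAT1, a transporter that takes up glutamine together with sodium. It was the most variable gene of the set. Control 1 to 5 had 11.4, 84.6, 21.8, 34.9 and 55.05 CPM, and Glut1-KO 1 to 5 had 43.5, 45.0, 46.8, 64.2 and 127.3 CPM. Controls differed among themselves by 7.43-fold, and the 3 female Glut1-KO-labelled libraries lay close together. Only Glut1-KO 5 was above every control. The means of 41.6 ± 29.1 and 65.4 ± 35.6 CPM (SD, n = 5 per group) gave a log2 fold change of 0.81 (SE 0.50, 95% interval -0.29 to 1.91), with a limma adjusted p of 0.741 and an exact permutation p of 0.190. Its interval was the widest of the set. Between male libraries alone the log2 fold change was 1.42 (SE 0.68, limma adjusted p 0.563), and with the female libraries against the controls it was 0.42 (SE 0.55, limma adjusted p 0.759). It was 0.44 without Control 1, 0.54 without Glut1-KO 5, and 0.90 without both Control 2 and Glut1-KO 5.

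**Figure D1:**
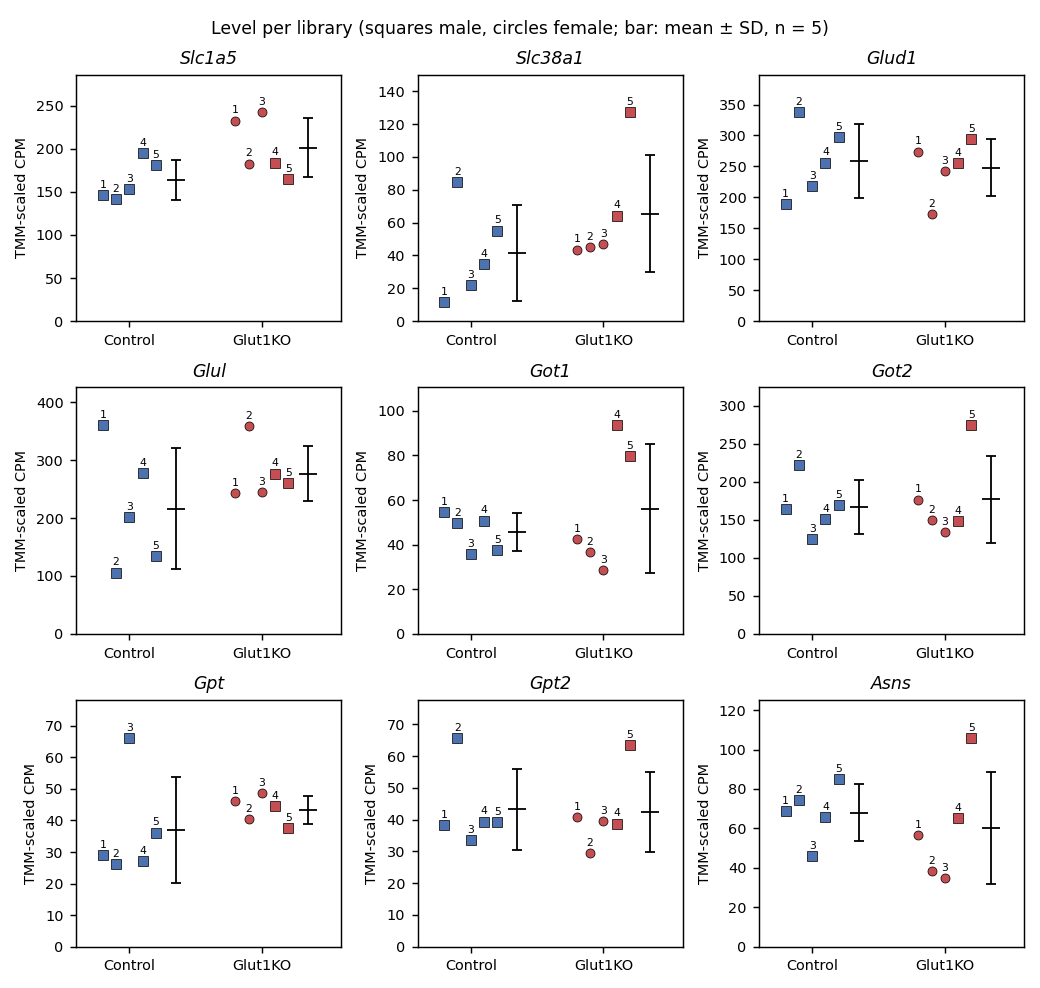
TMM-scaled CPM of each gene in every library, by group (linear axes from 0, numbers give the replicate, squares male and circles female), with the group mean and SD as bars (n = 5). The groups overlap in all 9 panels, Slc38a1 runs from 11.4 CPM in Control 1 to 127.3 CPM in Glut1-KO 5, and Got1 in the male Glut1-KO-labelled libraries lies above all controls.

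Glul and Glud1 both use glutamate, for glutamine synthesis and for its oxidation. Glul (ENSMUSG00000026473, chr1:153899944-153909723, plus strand), glutamine synthetase, builds glutamine from glutamate and ammonia. Its levels in Control 1 to 5 were 360.6, 105.8, 202.0, 277.8 and 134.5 CPM, a 3.41-fold range. In Glut1-KO 1 to 5 they were 242.4, 358.7, 244.4, 276.7 and 260.8 CPM, a 1.48-fold range that lay wholly inside that of the controls. Group means were 216.1 ± 104.5 and 276.6 ± 48.0 CPM (SD, n = 5 per group). A log2 fold change of 0.48 (SE 0.30, 95% interval -0.19 to 1.14) did not pass with limma (adjusted p 0.745, exact permutation p 0.238). It was 0.26 without Control 2 and 0.70 without Control 1, the highest control (limma adjusted p 0.598, exact permutation p 0.0476 for the latter). Among the fits that left out 1 library each, this exact permutation p was the smallest, and the largest was 0.468. The female and the male Glut1-KO-labelled libraries lay at similar distances from the controls in Glul, with differences in log2 CPM of 0.50 and 0.46.

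A processed pseudogene of Glul, Glns-ps1 (ENSMUSG00000082100, chr11:19720355-19721472, plus strand), carried between 7.39 and 27.9 CPM. It followed Glul more closely than any other gene tested (Pearson r 0.99 over the 10 libraries) and had 6.08% to 7.74% of the CPM of Glul in each library. Reads that fit both loci could have been split between them, so the level of Glul is uncertain.

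Glud1 (ENSMUSG00000021794, chr14:34310727-34345265, plus strand), mitochondrial glutamate dehydrogenase, releases ammonia from glutamate to give α-ketoglutarate. Control 1 to 5 had 188.5, 337.7, 217.7, 256.2 and 297.2 CPM. Glut1-KO 1 to 5 had 273.9, 172.9, 242.0, 255.2 and 293.8 CPM. Glut1-KO 2 was below every control and the other 4 fell among them. With 259.4 ± 59.8 and 247.6 ± 46.1 CPM (SD, n = 5 per group), the log2 fold change was -0.06 (SE 0.19, limma adjusted p 0.961, exact permutation p 0.786). The 95% interval ran from -0.47 to 0.36.

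Transaminases move the amino group of glutamate to a keto acid without releasing ammonia. Got1 (ENSMUSG00000025190, chr19:43499752-43524605, minus strand), the cytosolic aspartate transaminase of the malate-aspartate shuttle, was split inside the group labelled Glut1-KO. In Control 1 to 5 it had 54.5, 49.6, 35.9, 50.8 and 37.7 CPM. The female Glut1-KO 1 to 3 had 42.4, 36.6 and 28.6 CPM, and the male Glut1-KO 4 and 5 had 93.7 and 79.9 CPM. Both male libraries were above every control, and 1 of the 3 female libraries was below every control. Over all libraries the means were 45.7 ± 8.34 and 56.2 ± 28.7 CPM (SD, n = 5 per group), with a log2 fold change of 0.15 (SE 0.31, 95% interval -0.53 to 0.84), a limma adjusted p of 0.923 and an exact permutation p of 0.643. With edgeR and DESeq2 it was 0.30 and 0.30, and after summing by name number 0.04.

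Split by the sex label, the pooled value of Got1 did not describe either kind of library. Male libraries alone gave a log2 fold change of 0.94 (SE 0.20, limma adjusted p 0.340, exact permutation p 0.0476, the smallest that 5 against 2 libraries allow). The female Glut1-KO-labelled libraries against the male controls gave -0.35 (SE 0.19, limma adjusted p 0.449, exact permutation p 0.143). Glut1-KO 4 and 5 share the number in their deposited names and were the libraries with Slc2a1 inside the control range.

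Got2 (ENSMUSG00000031672, chr8:95864134-95888547, minus strand) is the mitochondrial partner of Got1. It stood at 164.6, 222.1, 125.1, 151.0 and 169.4 CPM in Control 1 to 5 and at 176.7, 150.1, 134.3, 148.7 and 274.7 CPM in Glut1-KO 1 to 5. Only Glut1-KO 5 lay outside the control range. Means of 166.5 ± 35.6 and 176.9 ± 56.8 CPM (SD, n = 5 per group) gave a log2 fold change of 0.06 (SE 0.21, 95% interval -0.39 to 0.52, limma adjusted p 0.958, exact permutation p 0.786). Unlike Got1, Got2 in Glut1-KO 4 was within the range of the female libraries. Its processed pseudogene Got2-ps1 (ENSMUSG00000080935, chr5:138364260-138365552, minus strand) had 20.1 to 50.8 CPM, or 14.96% to 18.50% of Got2, and tracked it with a Pearson r of 0.97 over the 10 libraries, so the level of Got2 is uncertain in the same way.

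Alanine transaminases are coded by Gpt, the cytosolic form, and Gpt2, the mitochondrial form. For Gpt (ENSMUSG00000022546, chr15:76695716-76699686, plus strand), Control 1 to 5 had 29.1, 26.2, 66.1, 27.1 and 36.1 CPM, and Glut1-KO 1 to 5 had 46.1, 40.4, 48.5, 44.6 and 37.5 CPM. All 5 Glut1-KO-labelled libraries lay above 4 of the 5 controls and below Control 3. The log2 fold change was 0.33 (SE 0.23, 95% interval -0.18 to 0.84), from 36.9 ± 16.8 to 43.4 ± 4.44 CPM (SD, n = 5 per group), with a limma adjusted p of 0.767 and an exact permutation p of 0.230. Without Control 3 it was 0.56, with a limma adjusted p of 0.527 (0.527 to 0.942 over the 10 fits that left out 1 library each).

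Gpt2 (ENSMUSG00000031700, chr8:85492576-85527560, plus strand) had 38.2, 65.7, 33.5, 39.4 and 39.3 CPM in Control 1 to 5 and 40.9, 29.3, 39.5, 38.8 and 63.5 CPM in Glut1-KO 1 to 5. One library of each group, Control 2 and Glut1-KO 5, stood at over 60 CPM, and the other 8 lay between 29.3 and 40.9 CPM. Means were 43.2 ± 12.8 and 42.4 ± 12.7 CPM (SD, n = 5 per group), with a log2 fold change of -0.04 (SE 0.23, 95% interval -0.54 to 0.46, limma adjusted p 0.980, exact permutation p 0.897).

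Asns (ENSMUSG00000029752, chr6:7675169-7693254, minus strand), asparagine synthetase, spends the amide nitrogen of glutamine to make asparagine. Control 1 to 5 had 68.9, 74.3, 45.9, 65.7 and 85.1 CPM. Glut1-KO 1 to 3 had 56.6, 38.4 and 34.8 CPM, and Glut1-KO 4 and 5 had 65.4 and 105.9 CPM. Glut1-KO 2 and 3 were below every control and Glut1-KO 5 was above every control. Pooled means of 68.0 ± 14.4 and 60.2 ± 28.5 CPM (SD, n = 5 per group) gave a log2 fold change of -0.27 (SE 0.29, 95% interval -0.90 to 0.36, limma adjusted p 0.847, exact permutation p 0.437). Against the controls, Asns in the female libraries was at -0.65 (SE 0.23, limma adjusted p 0.282, exact permutation p 0.0536), and the comparison of male libraries gave 0.33 (SE 0.27, limma adjusted p 0.726, exact permutation p 0.429). The female Glut1-KO-labelled libraries thus had 43.3 CPM on average and the male ones 85.7 CPM. The pooled value of Asns was -0.10 without Glut1-KO 3, -0.14 without Glut1-KO 2 and -0.50 without Glut1-KO 5, and with edgeR and DESeq2 -0.18 and -0.17.

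**Figure D2:**
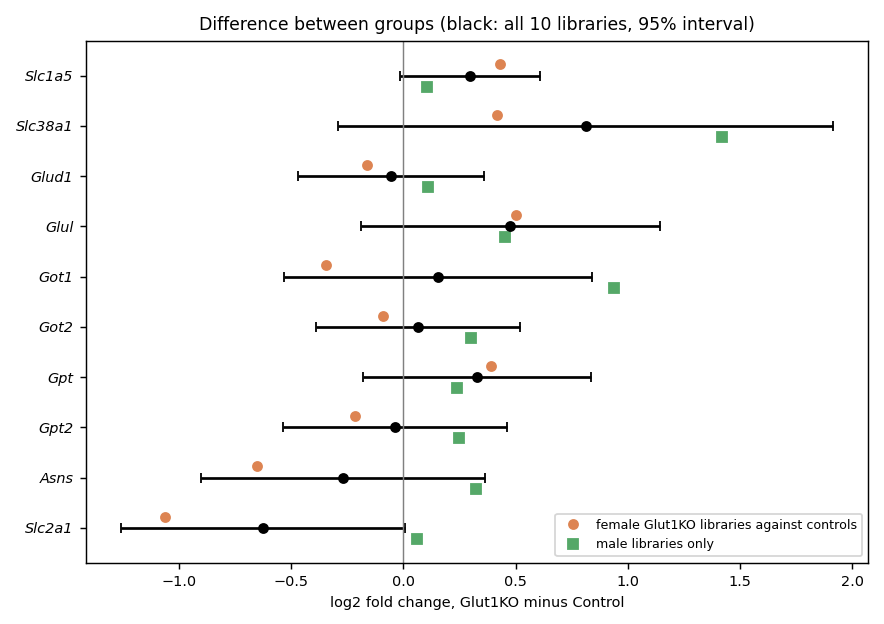
Log2 fold change of each gene and of Slc2a1, Glut1-KO minus Control. Black points and bars are the limma estimate over all 10 libraries with its 95% interval, orange circles are the 3 female Glut1-KO-labelled libraries against the 5 controls, and green squares are the male libraries alone. All intervals include 0, and the estimates for Got1 are -0.35 from the female and 0.94 from the male libraries.

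Control 2 and Glut1-KO 5 shared a profile over part of the set. They differed in Glul (105.8 and 260.8 CPM) and in Got1 (49.6 and 79.9 CPM). Control 2 was the highest control for Slc38a1, Glud1, Got2 and Gpt2 and the lowest for Slc1a5, Glul and Gpt. Glut1-KO 5 was the highest of its group for the same 4 genes and for Asns, and the lowest for Slc1a5 and Gpt. Part of this was seen in Control 5 too. Its Glud1, 297.2 CPM, was above that of Glut1-KO 5, and its Asns, 85.1 CPM, was above that of Control 2. In Control 2 the summed level of 8 markers of alveolar type 2 (AT2) cells was 25120 CPM, the lowest of all libraries (48200 to 80390 CPM in the others), and that of 6 proliferation genes was 635 CPM, the highest (307 to 429 CPM in the others). Control 2 also had the lowest sums of all libraries for club cell markers (2081 CPM) and endothelial markers (121 CPM). Glut1-KO 5 had the lowest AT2 sum of its group, 48200 CPM, while its proliferation sum of 366.5 CPM lay inside the range of its group (307 to 429 CPM). Its club cell and endothelial sums, 3357 and 318 CPM, also lay inside the ranges of its group. The part of these markers in the levels of the 9 genes was not tested. Without both libraries, the log2 fold changes of Glud1, Got2 and Gpt2 were -0.02, 0.003 and -0.03. Over all libraries they were already near 0, at -0.06, 0.06 and -0.04. Those of Glul, Got1 and Asns went from 0.48, 0.15 and -0.27 to 0.28, 0.02 and -0.47.

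**Figure D3:**
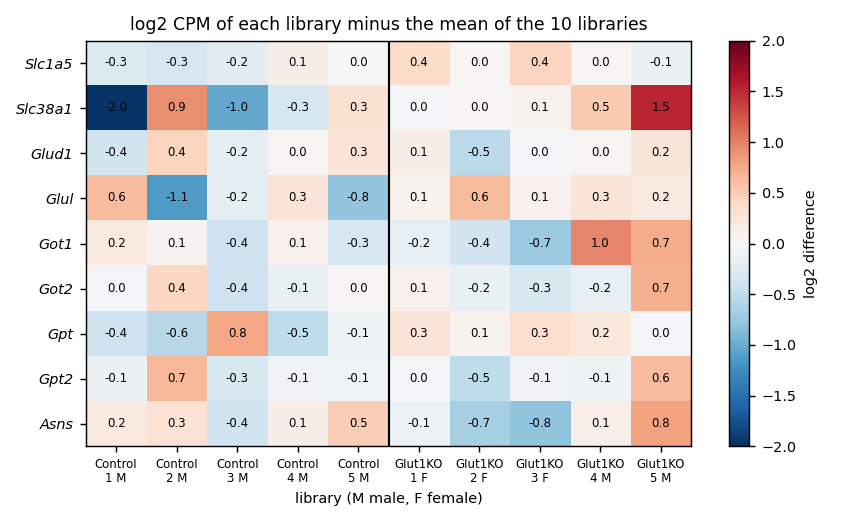
Difference of log2 CPM of each library from the mean of the 10 libraries, by gene (rows) and library (columns, M male and F female). Blue is below and red above that mean. Control 2 and Glut1-KO 5 are both above it for Slc38a1, Glud1, Got2, Gpt2 and Asns, and Got1 is furthest above it in Glut1-KO 4 and 5.

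The genes that most resembled each member over the 10 libraries were listed by Pearson correlation of log2 CPM, as a description over points that share depth and tumour composition. Slc1a5 was nearest to Dleu2 (r 0.90) and Slc15a1 (r 0.90), and Slc38a1 to Rhpn1 (r 0.95) and Pfkfb3 (r 0.94). For Glud1 they were Gm16229 (r 0.95) and Praf2 (r 0.95), and for Glul, after its pseudogene, Mfsd9 (r 0.96). Got1 was nearest to Vopp1 (r 0.99) and Gtpbp1 (r 0.97), and Got2, after its pseudogene, to Cops6 (r 0.97). Gpt was nearest to Stx6 (r 0.94) and Plcxd1 (r 0.93). For Gpt2, Tmem60 and Mthfd1l both gave r 0.96, with Spearman's rho of only 0.61 and 0.75, and for Asns the nearest were Hprt (r 0.97) and Prkar2a (r 0.96).

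Other genes of the pathway, listed by function, showed no call with limma either. Among 19 other transporters of glutamine and glutamate tested of 20 listed, 0 passed, 12 were positive and 7 negative, with a median log2 fold change of 0.17. Slc38a5, a further glutamine transporter, had the smallest p of them (log2 fold change 1.88, limma adjusted p 0.587) but was nearly silent, at 0.17 ± 0.13 and 0.78 ± 0.82 CPM (SD, n = 5 per group). Slc1a2, a glutamate transporter, came next at 0.72 (limma adjusted p 0.757). The abundant Slc38a2 had 823.7 ± 127.1 and 770.4 ± 98.2 CPM.

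Among 10 enzymes that spend the amide nitrogen of glutamine or charge its tRNA, 0 passed, 2 were positive and 8 negative, and the median was -0.10. Pfas, an enzyme of purine synthesis, had 32.5 ± 3.27 and 26.4 ± 4.43 CPM (log2 fold change -0.31, limma adjusted p 0.654), and Gfpt1, which opens the hexosamine pathway, had 0.25 (limma adjusted p 0.770). Of 16 other glutamate enzymes tested of 21 listed, 0 passed, 9 were positive and 7 negative, with Prodh, proline dehydrogenase, at 0.62 and Gclc, a subunit of the enzyme that opens glutathione synthesis, at 0.29 (limma adjusted p 0.784 and 0.811). In the asparagine and aspartate list, 0 of 6 genes tested passed. There Asrgl1, an asparaginase, had 9.09 ± 2.16 and 15.9 ± 5.55 CPM (log2 fold change 0.81, SE 0.26, limma adjusted p 0.484, exact permutation p 0.0159), and Ass1, argininosuccinate synthase, had 0.58 (limma adjusted p 0.821). Of 6 partners of Got1 and Got2 in the malate-aspartate shuttle, 0 passed, 2 were positive and 4 negative. The mitochondrial aspartate-glutamate carriers Slc25a12 and Slc25a13 were the positive ones, at 0.33 and 0.24 (limma adjusted p 0.621 and 0.723).

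The ATF4 response, the stress programme that includes Asns, was the pathway list with the most negative median, -0.22 over 20 genes, with 4 positive, 16 negative, 0 passing with limma and 2 with DESeq2. The 2 were Atf3 and Ppp1r15a, and they were also the 2 whose groups did not overlap, beside 1.35% of all genes called by DESeq2 and 1.85% without overlap. Atf3, a stress-induced transcription factor, had 310.4 ± 73.7 CPM in controls and 160.1 ± 20.7 CPM in the Glut1-KO-labelled libraries (log2 fold change -0.94, SE 0.17, limma adjusted p 0.230). Ppp1r15a, which codes for GADD34, had 200.5 ± 30.6 and 121.5 ± 29.7 CPM (log2 fold change -0.75, SE 0.19, limma adjusted p 0.363). Atf4 itself was at 242.0 ± 20.3 and 257.4 ± 42.5 CPM (SD, n = 5 per group), a log2 fold change of 0.08 (limma adjusted p 0.905). In the same libraries the 12 genes of the response to tissue dissociation were all negative. That list also holds Atf3, and of its genes 0 passed with limma and 2 with DESeq2. In 3 of the 12 the groups did not overlap (1.85% of all genes). Summed levels were 6040 to 8158 CPM in controls and 3886 to 6570 CPM in the Glut1-KO-labelled libraries. The part of dissociation in the ATF4 list was not tested. Within the group labelled Glut1-KO, the summed level of the ATF4 list was 1154, 1040 and 1108 CPM in the female libraries, below all controls (1342 to 2043 CPM), and 1517 and 1728 CPM in the male libraries, inside the control range. The dissociation list ran the other way, with 5774, 6166 and 6570 CPM in the female and 4412 and 3886 CPM in the male libraries. So did Atf3, with 178.8, 167.5 and 176.9 CPM in the female and 131.1 and 146.4 CPM in the male libraries. Ppp1r15a had 137.0, 145.5 and 144.2 CPM in the female and 78.9 and 102.0 CPM in the male libraries.

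**Figure D4:**
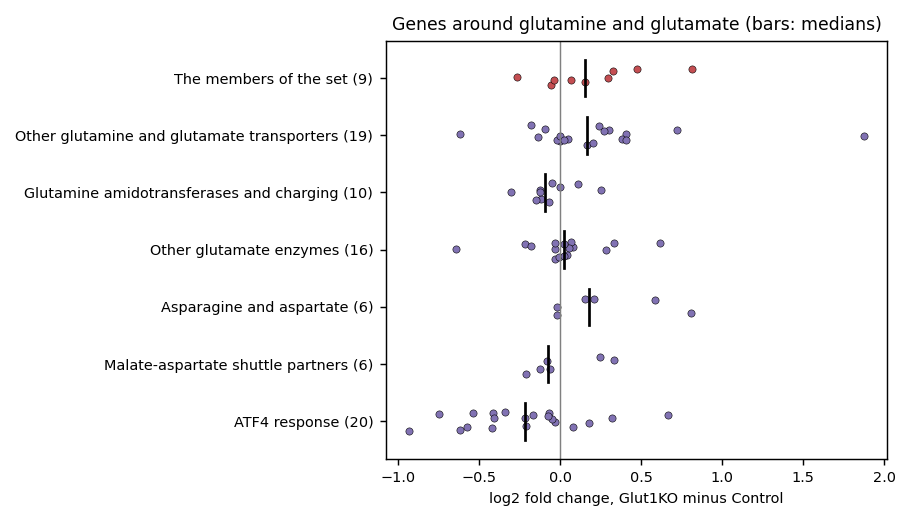
Log2 fold change, Glut1-KO minus Control, of every tested gene in the pathway lists drawn (points, spread vertically at random), with the list's median as a bar and the number of genes tested in parentheses. The members' median is 0.15, and of the lists drawn the ATF4 response has the lowest median, -0.22.

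Markers of other cell types were measured in the same libraries, and 0 passed with limma in any list. The fraction measured was bulk RNA, in which fewer cells of a type and less RNA per cell cannot be told apart. Of 11 leukocyte genes tested, 10 were positive and 1 negative, 5 passed with DESeq2 (1.35% of all genes), and 5 did not overlap between groups (1.85% of all genes). Their sum stayed low, at 37.5 to 58.6 CPM in controls and 42.6 to 77.1 CPM in the Glut1-KO-labelled libraries, and Ptprc, which codes for CD45, had 2.30 to 3.26 and 5.05 to 10.1 CPM. All 10 endothelial genes were positive (121 to 433 CPM in sum against 180 to 585 CPM), and all 8 ciliated cell genes were negative (323 to 513 CPM against 209 to 336.5 CPM, most of it Tubb4b). Foxj1, a transcription factor of ciliated cells, was the 1 ciliated gene passing with DESeq2 (adjusted p 0.00764), with group means of 21.9 ± 20.2 CPM (Control) and 3.20 ± 2.31 CPM (log2 fold change -2.23, SE 1.03, limma adjusted p 0.658). Their part in the levels of the 9 genes was not tested.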

How the data were processed

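The authors trimmed reads with Cutadapt (1.4.2 per the labels' processing notes, whereas the study's methods name another version), aligned them to mm10 with HISAT2 and counted them per gene with featureCounts 1.4.4, from stranded mRNA libraries. The strand setting and the annotation release were not given in the sources used here. The deposited files hold raw counts per Ensembl gene, and the 10 single files equalled the columns of the combined table. A deposited table of log2 values was not used. Members, lists and tests were chosen with earlier results of these data known.

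Under R 4.3.3, low counts were removed with filterByExpr of edgeR 4.0.16 (minimum count 10, minimum total 15). The rest was scaled by TMM and fitted with voom (prior count 0.5) and limma 3.58.1, with the group as only term, as the study's methods name these tools. P-values were adjusted by Benjamini-Hochberg over 15922 genes, with a threshold of 0.05. Alternatives were edgeR's quasi-likelihood test, DESeq2 1.42.0, other filters and scaling, sex terms, a replicate block, sums by name number, and leaving out libraries. Gene positions came from GENCODE M21 (37693 of 39017 identifiers found, 96.6%), which also gave the exon lengths for TPM.

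Named were all members, Slc2a1, for each pathway list the 2 genes with the smallest limma p, and for each member the 2 genes most correlated with it. Slc38a2, Atf4 and the markers given were named after their values were seen. Same-numbered replicates of the groups are not described as paired by any label. One result of the pathway lists is not reported here.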

Additional observations from a re-analysis of the deposited data

Results flagged for a closer look

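Of 18 groups of 5 libraries examined (each of the 9 genes in either group), 3 held a library set apart from the rest. Its gap to its nearest neighbour exceeded a share of 0.71 of the group's range in CPM (Dixon's limit). For normally distributed values chance gives about 1 in 20, but CPM without a log scale need not be so distributed. The 18 groups also reuse the same libraries, and the share over all genes was not computed, so the count is only a description. Slc38a1 in Glut1-KO 5 had 127.3 CPM, against 43.5 to 64.2 CPM in the other 4 libraries of its group. Gpt in Control 3 had 66.1 CPM, against 26.2 to 36.1 CPM in the other controls. Gpt2 in Control 2 had 65.7 CPM, against 33.5 to 39.4 CPM in the other controls.

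Got1 differed in direction between the sexes of the group labelled Glut1-KO. Relative to the mean log2 CPM of the controls, the 2 male libraries were at 0.94 (0.83 and 1.06) and the 3 female libraries at -0.35 (-0.66 to -0.09). All male libraries lay on one side and all female libraries on the other, and the difference was not tested. The 5 controls were male, so no female control was measured.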

How the results depend on the processing

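Under every alternative run, 0 of the 9 genes passed. Over 188 alternative log2 fold changes of the members, 171 kept the direction and 17 reversed, none of them for Slc1a5 (0.10 to 0.43), Slc38a1 (0.42 to 1.42), Glul (0.26 to 0.70) or Gpt (0.22 to 0.56). Slc38a1 was not tested under the filter of a mean TPM of at least 20. No female control was measured, so with sex as a covariate the group difference rests on the male libraries. That fit therefore repeats the male-only contrast by design, although both are counted among the 188. With sex as a covariate and with male libraries only, the values became 0.11 and 0.11 for Glud1, 0.25 and 0.25 for Gpt2, and 0.33 and 0.33 for Asns. For Slc2a1 they became 0.061 and 0.060, where the main fit gave -0.62 (SE 0.29, limma adjusted p 0.658). Got2 became 0.303 and 0.302 in these 2 fits, where the main fit gave 0.064. The female libraries labelled Glut1-KO against the controls gave -0.35 for Got1 and -0.092 for Got2. For Slc2a1 they gave -1.065 (SE 0.21, limma adjusted p 0.147, exact permutation p 0.0179). Leaving out 1 library each, Glud1 ran from -0.163 to 0.068 (above 0 without Control 2, Control 5 or Glut1-KO 2), Gpt2 from -0.19 to 0.13 (above 0 without Control 2 or Glut1-KO 2), Got2 from -0.10 to 0.17 (below 0 without Control 3 or Glut1-KO 5) and Got1 from -0.055 to 0.364 (below 0 without Glut1-KO 4 or 5). Asns ran from -0.50 (without Glut1-KO 5) to -0.10 (without Glut1-KO 3), and Slc2a1 from -0.81 to -0.42 (without Glut1-KO 3). Besides sex terms, edgeR and DESeq2 moved Got1 (0.299 and 0.304) and Asns (-0.175 and -0.171) by over 1.5 times. The count over all genes tested was 0 in the limma and edgeR fits of all libraries with the group as only term. It was 215 with DESeq2, 3 with sex as a covariate in limma, 1 with male libraries only and 9 with the female libraries. After summing by name number it was 2, and leaving out 1 library each it was 0 to 1 (1 without Control 3). The cause of these changes was not tested. With a replicate block, log2 fold changes were 0.30 for Slc1a5, 0.75 for Slc38a1, 0.19 for Got1, -0.26 for Asns and -0.61 for Slc2a1, and 0 genes passed. Deviations of same-numbered libraries correlated at -0.13 to 0.20, and 1 of 5 numbers matched best with its own, so the numbers were not taken as pairs. The alternative without both Control 2 and Glut1-KO 5 was chosen after seeing the data.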
